A study of Mus musculus with 8 samples.

Results

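Haematopoietic signalling and cytoskeleton genes were described in bulk RNA of KPC tumours, a model of pancreatic cancer grown subcutaneously in mice. The set holds 35 genes of 57132 in the count matrix, and covers kinases, adaptors, actin regulators, integrins, surface proteins and transcription factors whose expression is largely restricted to leukocytes. The members were chosen from measured values of the PDT minus PBS contrast reported here, so their differences are a description of these libraries and no support for a change in the set. They were taken by symbol, and each symbol stood on 1 gene identifier.

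The PDT group was 4 tumours from mice given Ce6@D4-EV and then light, a photodynamic therapy in which chlorin e6 (Ce6) makes reactive oxygen species when lit. The PBS group was 4 tumours from mice given phosphate-buffered saline. All 8 tumours grew under the skin and not in the pancreas. The labels call the tissue sorted without naming a gate, so levels of cell type markers may depend on sorting, which was not tested. No group with light alone or unlit carrier was among the 8 libraries, so the parts of light, carrier and Ce6 cannot be told apart. The labels give no strain, sex, age, dose or time of harvest, and do not say whether each tumour is from its own animal, so the spread behind every p-value may be partly technical.

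Leukocytes share a signalling and motility apparatus that most other cells build from related genes. In it, Src-family kinases phosphorylate receptor-associated adaptors such as Tyrobp, the kinase Syk docks there, and Lcp2, Vav1 and Plcg2 pass the signal on, while phosphatases such as Inpp5d limit it. Dock2, Was, Nckap1l and Coro1a then reshape actin, and integrins activated by Fermt3 hold the cell to its substrate. Spi1, which encodes PU.1, is a transcription factor that sets up the myeloid part of this programme, and its DNA motif has the core GAGGAA. In a tumour such transcripts come mainly from infiltrating immune cells. In bulk RNA, fewer cells of a type and less RNA per cell cannot be told apart.

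Promoters of 4 members are shown because they span the set: Vav1 and Pstpip1 had differences among the 3 largest, and Itgam and Itgax are neighbouring integrin genes whose differences had opposite signs. Each is 300 bases, 250 before and 50 after the annotated start, from RefSeq on GRCm38.p6, all on the plus strand and in the direction of transcription. Capitals mark GAGGAA or its reverse complement TTCCTC. The windows are chr17:57278850-57279149 for Vav1, chr9:56089726-56090025 for Pstpip1, chr7:128062390-128062689 for Itgam and chr7:128129300-128129599 for Itgax.
Vav1: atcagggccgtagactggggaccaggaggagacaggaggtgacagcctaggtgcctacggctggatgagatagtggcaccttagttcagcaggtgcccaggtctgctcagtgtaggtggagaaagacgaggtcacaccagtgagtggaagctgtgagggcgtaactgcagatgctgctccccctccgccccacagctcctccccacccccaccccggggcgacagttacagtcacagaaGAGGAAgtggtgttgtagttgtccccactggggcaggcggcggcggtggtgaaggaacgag
Pstpip1: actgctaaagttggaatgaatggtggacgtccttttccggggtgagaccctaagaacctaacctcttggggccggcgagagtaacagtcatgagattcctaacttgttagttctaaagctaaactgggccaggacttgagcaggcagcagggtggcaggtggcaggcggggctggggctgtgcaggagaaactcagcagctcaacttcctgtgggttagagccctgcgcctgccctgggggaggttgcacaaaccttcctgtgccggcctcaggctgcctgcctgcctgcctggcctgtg
Itgam: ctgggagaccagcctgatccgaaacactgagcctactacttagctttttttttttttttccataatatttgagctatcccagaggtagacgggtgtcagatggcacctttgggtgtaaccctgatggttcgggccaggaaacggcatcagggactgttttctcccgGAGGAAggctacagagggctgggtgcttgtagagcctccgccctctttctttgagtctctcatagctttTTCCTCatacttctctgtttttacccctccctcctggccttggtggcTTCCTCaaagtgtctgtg
Itgax: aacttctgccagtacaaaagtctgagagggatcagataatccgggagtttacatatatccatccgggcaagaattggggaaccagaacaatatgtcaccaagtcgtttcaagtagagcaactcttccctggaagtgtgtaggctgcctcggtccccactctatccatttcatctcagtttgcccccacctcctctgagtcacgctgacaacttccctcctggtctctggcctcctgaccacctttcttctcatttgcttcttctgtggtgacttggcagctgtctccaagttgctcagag
The Vav1 window held the motif once, at −11 from the start, and the Itgam window held it 3 times, with the first at −84. No match was found in the windows of Pstpip1 and Itgax. Of the 35 members 26 had a promoter in the table, and 17 of these genes (65.4%) had the motif on either strand in at least 1 window, against 8446 of 27025 genes (31.3%) over the whole table. Counted by window, 17 of 33 member windows (51.5%) held it, against 9289 of 32851 (28.3%). Lst1, Cd52, Tyrobp, Selplg, Spi1, Lyn, Itgb2, Nckap1l and Arhgap9 were not in the table. A match is a description of these letters and not a binding site.

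Summed gene counts were 39026840 to 48804713 in PDT and 35742024 to 40337306 in PBS. Levels are given as CPM, counts-per-million after TMM scaling of each library, and differences as log2 fold changes, PDT minus PBS, with their standard error (SE) from edgeR's quasi-likelihood fit over all genes. Of the 35 members 34 passed the filter on low counts. Evi2b (ENSMUSG00000093938), a membrane protein of blood cells, had 0 reads in every library, which allows up to 3 reads or 0.0665 to 0.0872 CPM by counting error alone. In the GENCODE M21 annotation, 98.5% of the exonic bases of Evi2b were shared on the same strand with the gene Evi2, so its count is uncertain.

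Of the 34 tested members 33 were higher in PDT and 1, Itgax, was lower, and their median log2 fold change was 0.65, against −0.00217 for all 16588 tested genes. In 20 of the 34 all 4 PDT values lay above all 4 PBS values, which was true of 5% of all tested genes. Vav1, Pstpip1, Lst1 and Cd52 passed an adjusted p of 0.05, and 27 members had an unadjusted p under 0.05. Over all tested genes 0.235% passed in either direction, 0.163% were higher in PDT, and 16.5% had an unadjusted p under 0.05. Because the same contrast chose the members, nothing is read from these shares. DESeq2 called 17 members, against 5.3% of all tested genes, and limma-voom called 10, against 1.01%. The 4 calls held without PDT 2 or PBS 4, and were lost without any one of the other 6 libraries and once GC content and length of transcripts were corrected for.

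**Figure D1:**
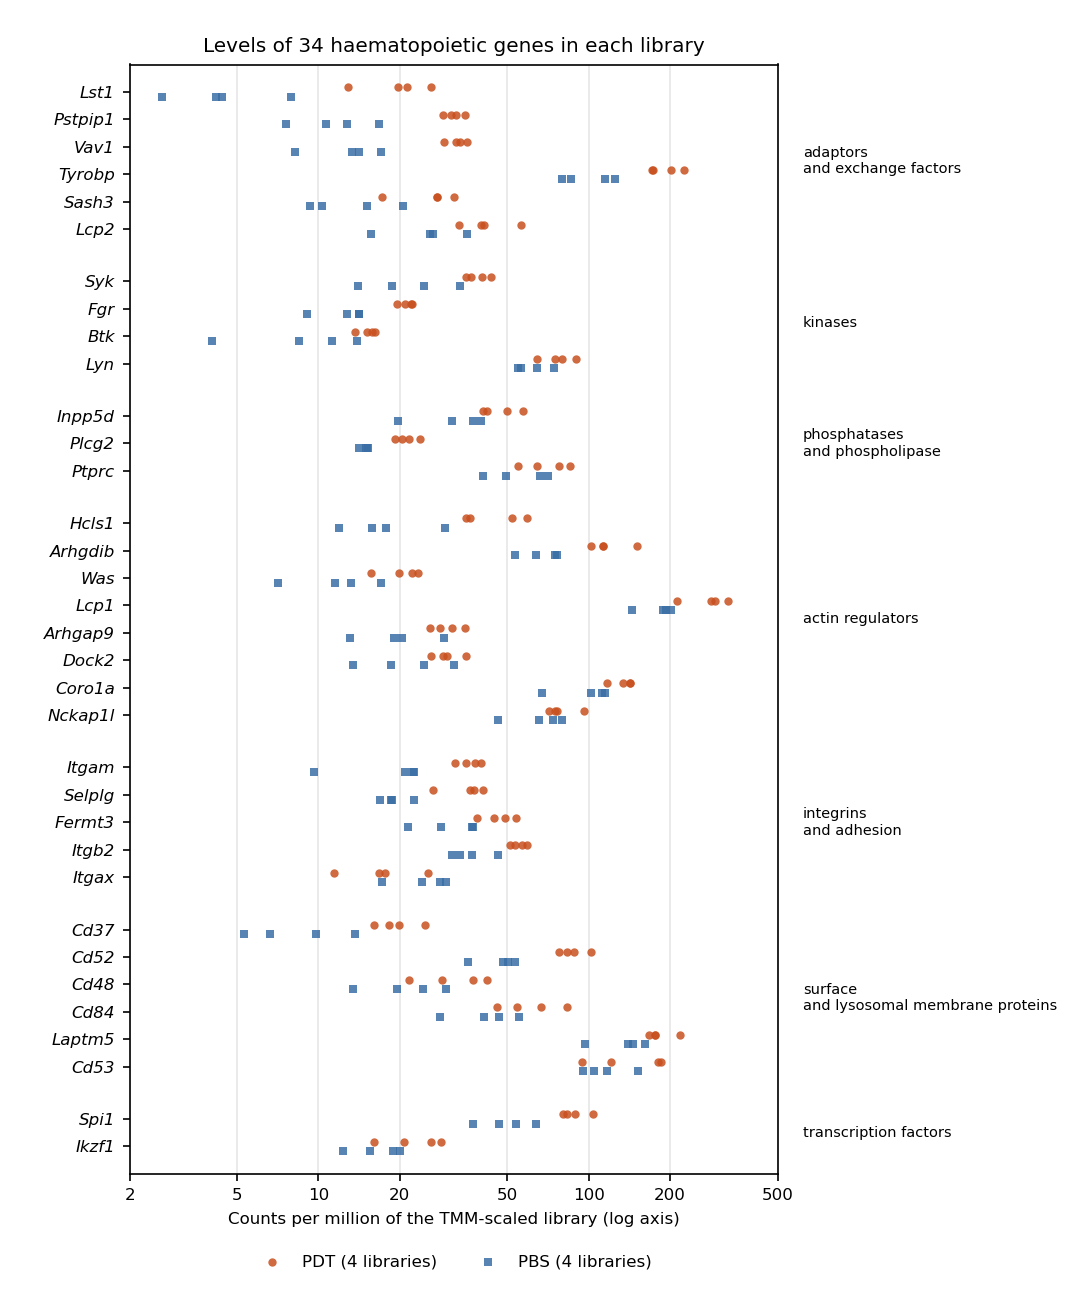
Levels of the 34 tested haematopoietic genes in CPM (log axis) in 4 PDT libraries (orange circles) and 4 PBS libraries (blue squares), 1 point per library, grouped by role. In 20 genes every PDT point lies to the right of every PBS point, and Itgax is the gene whose PDT points lie mostly to the left.

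Signalling adaptors held the members with the largest differences. All 6 were higher in PDT, their median log2 fold change was 1.12, and 3 of them passed the threshold.

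Lst1 (ENSMUSG00000073412), a leukocyte-specific transcript of myeloid cells, was at 26.1, 12.9, 19.6 and 21.3 CPM in PDT 1 to PDT 4, against 4.41, 4.17, 2.63 and 7.88 CPM in PBS 1 to PBS 4. The PDT values did not overlap the PBS values, and PDT 2 and PBS 3 were the lowest of their groups. Its log2 fold change was 2.07 ± 0.33 (adjusted p = 0.0399 by edgeR), or 4.19-fold. Pstpip1 (ENSMUSG00000032322), which links a family of tyrosine phosphatases to the actin regulator Was, was at 34.98, 28.999, 31.04 and 32.3 CPM in PDT 1 to PDT 4, against 12.7, 10.6, 7.57 and 16.7 CPM in PBS 1 to PBS 4. All 4 PDT libraries were close to each other, and PBS 3 and PBS 4 marked the ends of the PBS range. Its log2 fold change was 1.42 ± 0.22 (adjusted p = 0.0362 by edgeR). Vav1 (ENSMUSG00000034116), an exchange factor that acts behind antigen and adhesion receptors, was at 35.3, 29.2, 33.4 and 32.3 CPM in PDT 1 to PDT 4, against 13.4, 14.1, 8.18 and 16.98 CPM in PBS 1 to PBS 4. The lowest PDT library lay above the highest PBS library, with a log2 fold change of 1.31 ± 0.21 (adjusted p = 0.0399 by edgeR).

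Tyrobp (ENSMUSG00000030579), the membrane adaptor also called DAP12 that couples myeloid and NK receptors to Syk, was at 226, 171, 172 and 202 CPM in PDT 1 to PDT 4, against 125, 86.2, 79.5 and 115 CPM in PBS 1 to PBS 4. Every PDT library lay above every PBS library, and its log2 fold change of 0.93 ± 0.17 lay just outside the threshold (adjusted p = 0.05103 by edgeR). Lcp2 (ENSMUSG00000002699), the adaptor SLP-76, was at 55.95, 41.1, 39.9 and 33.1 CPM in PDT 1 to PDT 4, against 35.3, 26.6, 15.6 and 25.9 CPM in PBS 1 to PBS 4. Its groups overlapped, since PBS 1 lay above PDT 4, and the log2 fold change was 0.72 ± 0.23. Sash3, an adaptor of lymphocytes, also overlapped, at 17.2 to 31.7 CPM in PDT and 9.31 to 20.6 CPM in PBS, with a log2 fold change of 0.90 ± 0.27.

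All 4 kinases were higher in PDT, and their median log2 fold change was 0.72. At the threshold edgeR called 0 of them, DESeq2 2 and limma-voom 0, and 3 had an unadjusted p under 0.05 in edgeR. Lyn (ENSMUSG00000042228), a Src-family kinase, was at 74.995, 89.9, 79.9 and 64.5 CPM in PDT 1 to PDT 4, against 74.6, 55.9, 54.9 and 64.3 CPM in PBS 1 to PBS 4. PBS 1 lay above PDT 4, so the groups overlapped, and the log2 fold change was 0.31 ± 0.15. Syk (ENSMUSG00000021457), the kinase that docks on phosphorylated adaptors, was at 43.4, 35.01, 36.7 and 40.2 CPM in PDT 1 to PDT 4, against 18.7, 24.6, 14.04 and 33.3 CPM in PBS 1 to PBS 4. Every PDT library was above PBS 4, the highest of its group, with a log2 fold change of 0.78 ± 0.23. Fgr, a Src-family kinase of myeloid cells, did not overlap either (19.6 to 22.2 CPM in PDT and 9.097 to 14.1 CPM in PBS, log2 fold change 0.76 ± 0.18). Btk, which acts downstream of Syk in B cells and myeloid cells, overlapped, at 13.7 to 16.2 CPM in PDT and 4.05 to 13.9 CPM in PBS, with a log2 fold change of 0.69 ± 0.31.

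The 2 phosphatases and the phospholipase had log2 fold changes of 0.31 to 0.57. Ptprc (ENSMUSG00000026395), which encodes CD45 and marks nearly all nucleated blood cells, was at 77.5, 84.9, 64.6 and 54.7 CPM in PDT 1 to PDT 4, against 65.8, 70.8, 40.8 and 49.3 CPM in PBS 1 to PBS 4. The ranges overlapped widely, and the log2 fold change was 0.31 ± 0.20 (adjusted p = 0.4698 by edgeR). Inpp5d (ENSMUSG00000026288), the inositol phosphatase SHIP1 that opposes PI3-kinase signalling, was at 42.1, 56.9, 49.95 and 40.6 CPM in PDT 1 to PDT 4, against 37.2, 39.9, 19.7 and 31.1 CPM in PBS 1 to PBS 4. The groups were separated by less than 1 CPM, between PDT 4 and PBS 2, with a log2 fold change of 0.57 ± 0.21. Plcg2, the phospholipase downstream of Syk and Btk, was the steadiest member within PBS, at 19.2 to 23.7 CPM in PDT and 14.1 to 15.3 CPM in PBS, and its log2 fold change was 0.51 ± 0.14. Of these 3 genes edgeR called 0, DESeq2 1 and limma-voom 0, and 2 had an unadjusted edgeR p under 0.05.

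Among the 8 actin regulators 8 of 8 were higher in PDT, their median was 0.59, and differences ran from 0.27 to 1.29. The calls numbered 0 by edgeR, 3 by DESeq2 and 2 by limma-voom, and 6 had an unadjusted edgeR p under 0.05. Lcp1 (ENSMUSG00000021998), the actin-bundling protein L-plastin, was at 328, 293, 283 and 213 CPM in PDT 1 to PDT 4, against 202, 189, 145 and 194 CPM in PBS 1 to PBS 4. Even its lowest PDT library, PDT 4, lay above the PBS range, and its log2 fold change was 0.62 ± 0.16. Coro1a (ENSMUSG00000030707), the coronin of leukocytes, was at 142, 142, 117 and 134 CPM in PDT 1 to PDT 4, against 102, 115, 67.3 and 112 CPM in PBS 1 to PBS 4. The groups met within 3 CPM, at PDT 3 and PBS 2, and the log2 fold change was 0.43 ± 0.17.

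Hcls1, the blood-cell relative of cortactin, had the largest difference of this class, at 1.29 ± 0.27 (35.2 to 59.3 CPM in PDT and 11.9 to 29.3 CPM in PBS, adjusted p = 0.0663 by edgeR). Arhgdib, a cytosolic inhibitor in the control of actin, did not overlap either, at 102 to 151 CPM in PDT and 53.3 to 76.1 CPM in PBS, with a log2 fold change of 0.83 ± 0.16 (adjusted p = 0.0566 by edgeR). Was, which encodes the Wiskott-Aldrich syndrome protein, Arhgap9, a GTPase-activating protein, and Dock2, a Rac exchange factor, had log2 fold changes of 0.73 ± 0.25, 0.56 ± 0.22 and 0.45 ± 0.23, and all 3 overlapped between the groups. Was lay at 15.6 to 23.4 CPM in PDT and 7.07 to 17.01 CPM in PBS, and Dock2 at 26.1 to 35.2 CPM in PDT and 13.4 to 31.6 CPM in PBS. Nckap1l, the haematopoietic subunit of the WAVE complex, had the smallest difference of the 33 higher members, at 0.27 ± 0.17 (71.3 to 95.9 CPM in PDT and 46.1 to 79.4 CPM in PBS).

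Integrin and adhesion genes split. Itgb2 (ENSMUSG00000000290), the beta subunit shared by leukocyte integrins, was at 51.1, 53.6, 56.4 and 58.9 CPM in PDT 1 to PDT 4, against 31.3, 46.1, 33.3 and 36.9 CPM in PBS 1 to PBS 4. No PBS library reached the PDT range, and the log2 fold change was 0.57 ± 0.14. Fermt3 (ENSMUSG00000024965), kindlin-3, which switches integrins on, was at 38.7, 49.2, 53.8 and 44.6 CPM in PDT 1 to PDT 4, against 37.1, 37.4, 21.5 and 28.4 CPM in PBS 1 to PBS 4. Its groups did not overlap, and its log2 fold change was 0.58 ± 0.19.

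Of the alpha subunits that pair with Itgb2, Itgam (ENSMUSG00000030786), the CD11b chain of macrophages, monocytes and neutrophils, was at 37.996, 39.96, 32.1 and 35.2 CPM in PDT 1 to PDT 4, against 20.8, 22.5, 9.62 and 22.4 CPM in PBS 1 to PBS 4. PBS 3 lay far below the other libraries, and the log2 fold change was 0.95 ± 0.24. Itgax (ENSMUSG00000030789), the CD11c chain of dendritic cells and some macrophages, was at 11.4, 25.4, 16.8 and 17.7 CPM in PDT 1 to PDT 4, against 17.2, 24.1, 28.2 and 29.6 CPM in PBS 1 to PBS 4. It was the 1 member with a lower PDT mean, at 17.8 ± 5.78 CPM in PDT and 24.8 ± 5.56 CPM in PBS (SD, n = 4), but the groups overlapped and the log2 fold change was −0.48 ± 0.25 (adjusted p = 0.368 by edgeR). PBS 3, the lowest PBS library for Itgam, was among the highest for Itgax. The promoters of these neighbours, shown above, held 3 motif matches and none, and a link of matches to differences was not tested. Selplg, the ligand of P-selectin on leukocytes, had a log2 fold change of 0.88 ± 0.16 and no overlap (26.6 to 40.5 CPM in PDT and 16.9 to 22.5 CPM in PBS, adjusted p = 0.0515 by edgeR). In M21, 68.7% of the exonic bases of Itgam lie in the gene Gm49368 on the same strand. That gene had 5 reads in PDT 4 and 0 in the other libraries.

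Surface and lysosomal membrane proteins had a median of 0.56 over 6 tested genes. Cd52 (ENSMUSG00000000682), a small glycoprotein anchored on lymphocytes and myeloid cells, was at 102, 82.97, 77.6 and 88.03 CPM in PDT 1 to PDT 4, against 47.998, 50.4, 35.9 and 53.4 CPM in PBS 1 to PBS 4. The PDT range lay wholly above the PBS range, with a log2 fold change of 0.90 ± 0.15 (adjusted p = 0.0473 by edgeR), just inside the threshold. In M21, 14.5% of its exonic bases lie opposite Crybg2. Laptm5 (ENSMUSG00000028581), a lysosomal protein that lowers antigen receptor levels, was at 176, 218, 176 and 167 CPM in PDT 1 to PDT 4, against 140.2, 161, 96.7 and 146 CPM in PBS 1 to PBS 4. Cd53 (ENSMUSG00000040747), a tetraspanin of leukocytes, was at 179.7, 185, 121 and 94.2 CPM in PDT 1 to PDT 4, against 152, 117, 95.6 and 105 CPM in PBS 1 to PBS 4. Laptm5 did not overlap (log2 fold change 0.44 ± 0.16), whereas Cd53 overlapped across most of its range (0.30 ± 0.22), since PDT 4 was the lowest of all 8 libraries.

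Cd37, another leukocyte tetraspanin, had the largest difference of the class, 1.16 ± 0.28, with no overlap (16.03 to 24.8 CPM in PDT and 5.31 to 13.6 CPM in PBS). Cd48 and Cd84, receptors of the SLAM family, had log2 fold changes of 0.58 ± 0.26 and 0.55 ± 0.22, and both overlapped. Cd48 ranged over 21.7 to 42.05 CPM in PDT and 13.5 to 29.7 CPM in PBS, and Cd84 over 45.7 to 83.4 CPM in PDT and 28.3 to 55.3 CPM in PBS.

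The transcription factor Spi1 (ENSMUSG00000002111) was at 104, 89.3, 80.4 and 82.9 CPM in PDT 1 to PDT 4, against 63.7, 46.5, 37.2 and 53.6 CPM in PBS 1 to PBS 4. Its groups did not overlap, and the log2 fold change was 0.83 ± 0.17 (adjusted p = 0.0609 by edgeR). Ikzf1 (ENSMUSG00000018654), which encodes Ikaros and directs lymphoid development, was at 20.8, 28.3, 26.1 and 15.98 CPM in PDT 1 to PDT 4, against 20.1, 15.5, 12.3 and 18.8 CPM in PBS 1 to PBS 4. PDT 4 lay inside the PBS range, and the log2 fold change was 0.45 ± 0.22.

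Set against transcript length, with lengths from M21, levels spanned a wide range. In TPM, a read count scaled by transcript length and library, Tyrobp was the most abundant member, at 609 ± 32.3 TPM in PDT and 344 ± 67.3 TPM in PBS (SD, n = 4). Cd52 followed at 322 ± 7.2005 TPM in PDT and 185 ± 27.8 TPM in PBS. Ikzf1 was the lowest of the tested members, at 8.48 ± 2.58 TPM in PDT and 6.56 ± 1.26 TPM in PBS, and the kinase means lay between 11.4 and 42.7 TPM in PDT.

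The libraries differed in step. PBS 3 was the lowest PBS library for 29 of 34 members and the lowest of all 8 libraries for 28. PDT 1 was the highest PDT library for 16 members and PDT 2 for 11, while PDT 4 was the lowest of its group for 18. The mean log2 CPM of the members was 5.66, 5.62, 5.53 and 5.40 in PDT 1 to PDT 4, against 4.99, 4.95, 4.36 and 4.97 in PBS 1 to PBS 4. Without PBS 3 the median log2 fold change of the members was 0.53, still with 33 of 34 higher, and it was 0.77 without PBS 1. The coefficient of variation of a member across its group had a median of 13.8% in PDT and 24.6% in PBS, and 27 of 34 members varied more in PBS. For all tested genes these medians were 20.6% in PDT and 22.6% in PBS, and 9554 of 16588 genes varied more in PBS. Because the same contrast chose the members, nothing is read from their unequal spread. Syk, for example, varied by 9.65% in PDT and 36.7% in PBS, and Btk by 7.36% in PDT and 44.7% in PBS, whereas Lcp1 varied by 17.4% in PDT and 14.02% in PBS.

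**Figure D2:**
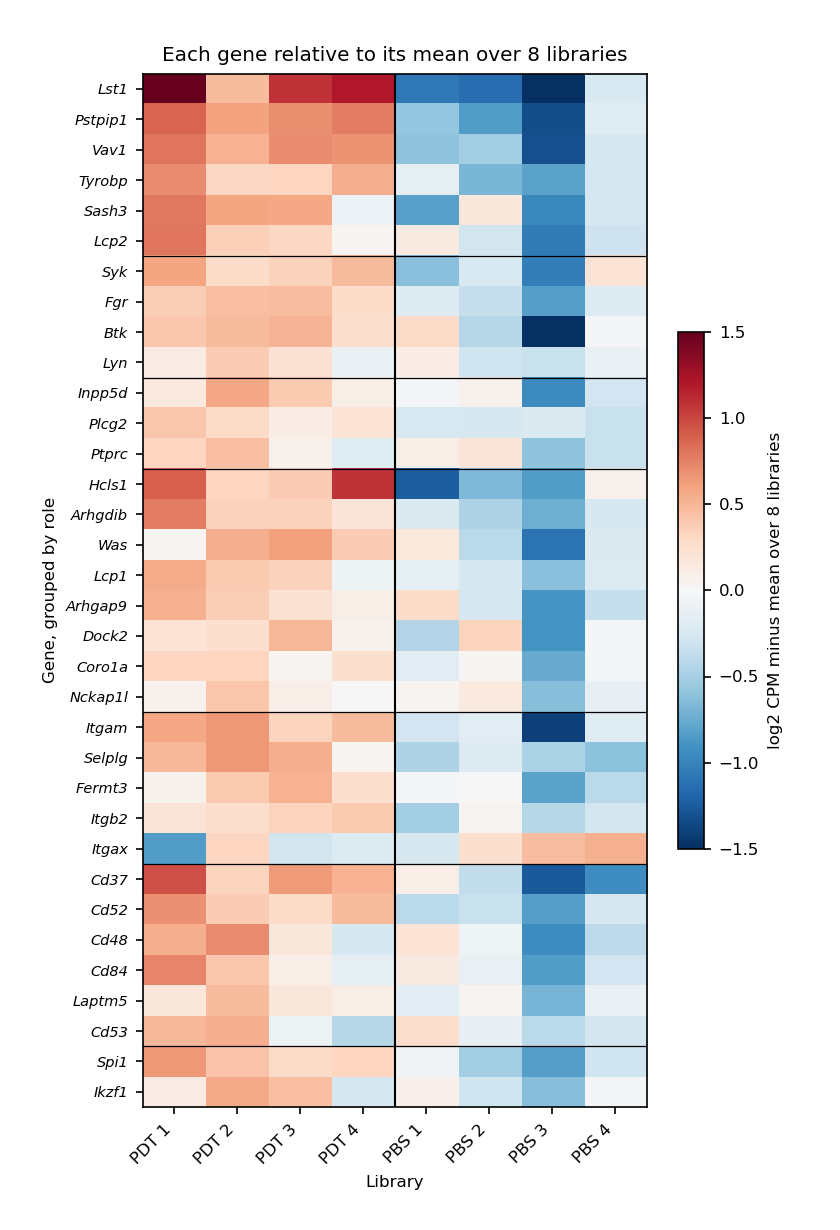
Heat map of log2 CPM minus the mean over the 8 libraries, for 34 haematopoietic genes (rows, by role) in PDT 1 to PDT 4 (left) and PBS 1 to PBS 4 (right), red above and blue below the mean. The PBS 3 column is the bluest, being lowest of its group in 29 genes, and the Itgax row runs the other way.

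The summed level of the 8 epithelial markers, all tested and 3 of them higher in PDT, was 4816, 3192, 4387 and 6362 CPM in PDT 1 to PDT 4, against 3650, 4156, 7433 and 3917 CPM in PBS 1 to PBS 4. PDT 4 and PBS 3, the lowest of their groups for 18 and 29 members, held the highest epithelial sums of their groups, while PDT 1, with the highest mean of the members, held the second-highest sum in PDT. The median log2 fold change of these markers was −0.11, or −0.32 after the GC and length correction, and their part in the members' pattern was not tested.

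Relative to Ptprc reads in the same library, fewer members separated the groups. Of 33 members other than Ptprc, 4 had all PDT ratios above all PBS ratios and 29 overlapped, where 20 of 34 separated in CPM. Each ratio also carries the spread of Ptprc, whose coefficient of variation was 19.04% in PDT and 24.8% in PBS. The share of all tested genes that separate per Ptprc read was not determined, so the lower count is not a trait of the members. The 4 were Pstpip1, Itgam, Sash3 and Selplg. Reads of Pstpip1 per Ptprc read were 0.451, 0.342, 0.4805 and 0.591 in PDT 1 to PDT 4, against 0.194, 0.1502, 0.186 and 0.34002 in PBS 1 to PBS 4. PDT 2 and PBS 4 all but met. Selplg gave 0.4697, 0.477, 0.584 and 0.487 in PDT 1 to PDT 4, against 0.285, 0.318, 0.454 and 0.342 in PBS 1 to PBS 4. For Vav1 the ratios were 0.456, 0.344, 0.516 and 0.5902 in PDT 1 to PDT 4, against 0.203, 0.199, 0.201 and 0.345 in PBS 1 to PBS 4, so that PDT 2 and PBS 4 overlapped. These are ratios of raw reads of genes of different length, and show unequal differences, not which gene was stable.

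The comparison of members with their paralogues asked whether related genes of wide expression differed in the same libraries. The 22 paralogues, 1 for each of 22 members, had a median of −0.01 on the same log2 scale, with 10 higher and 12 lower in PDT. In edgeR 0 passed the threshold and 4 had an unadjusted p under 0.05, while DESeq2 called 2 and limma-voom 1. None of the 22 had all PDT values above all PBS values, and 3, Nckap1, Itgb1 and Yes1, had all PDT values below, which was true of 5.12% of all tested genes. The paralogues were chosen with earlier results of these data known, so nothing is read from these counts.

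Itgb1, the integrin beta subunit of most cell types and the paralogue of Itgb2, was at 624, 615, 615 and 588 CPM in PDT 1 to PDT 4, against 653, 882, 814 and 914 CPM in PBS 1 to PBS 4. All PDT libraries lay below all PBS libraries, with a log2 fold change of −0.42 ± 0.13 (adjusted p = 0.1399 by edgeR). Nckap1, the widely expressed counterpart of Nckap1l in the WAVE complex, was at 213, 274, 227 and 190.1 CPM in PDT 1 to PDT 4, against 337, 336, 342 and 317 CPM in PBS 1 to PBS 4. It did not overlap either, and its log2 fold change was −0.56 ± 0.13 (adjusted p = 0.0803 by edgeR). As a ratio of TPM, Nckap1l per Nckap1 was 0.325, 0.322, 0.311 and 0.345 in PDT 1 to PDT 4, against 0.202, 0.217, 0.124 and 0.1903 in PBS 1 to PBS 4. Every PDT ratio was above every PBS ratio, although Nckap1l itself overlapped between the groups. The same held for Was, Arhgap9 and Lyn, each per its paralogue. The reverse held for Arhgdib, Coro1a, Inpp5d, Plcg2 and Cd37, whose ratios overlapped although their CPM values did not. The share of other gene pairs whose ratios separate was not determined. Nothing is therefore read from these ratios or from that of Hcls1 below.

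Pls3, the plastin of non-haematopoietic cells, had a log2 fold change of −0.24 ± 0.13, against 0.62 ± 0.16 for Lcp1. Cttn, cortactin, had one of 0.01 ± 0.13, against 1.29 ± 0.27 for Hcls1. In TPM, Hcls1 per Cttn was 0.302, 0.216, 0.184 and 0.266 in PDT 1 to PDT 4, against 0.0652, 0.0987, 0.0782 and 0.155 in PBS 1 to PBS 4, with no overlap. Laptm4a, a lysosomal relative of Laptm5, had −0.19 ± 0.13, against 0.44 ± 0.16 for that gene. Arhgdia, the counterpart of Arhgdib in most cells, was higher in PDT at 0.28 ± 0.13, or −0.04 after the GC and length correction, against 0.83 ± 0.16 for Arhgdib. Cttn turned to −0.17 with that correction, which moved the median of all tested genes to −0.08. The other 16 paralogues had log2 fold changes from −0.39 (Wasl) to 0.64 (Bmx), and the next highest was Inppl1 at 0.29. Bmx, at 0.391 to 1.07 CPM in PDT and 0.191 to 0.816 CPM in PBS, was the least precise of them. With 8 to 42 reads a library it was not a gene of wide expression by these levels.

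**Figure D3:**
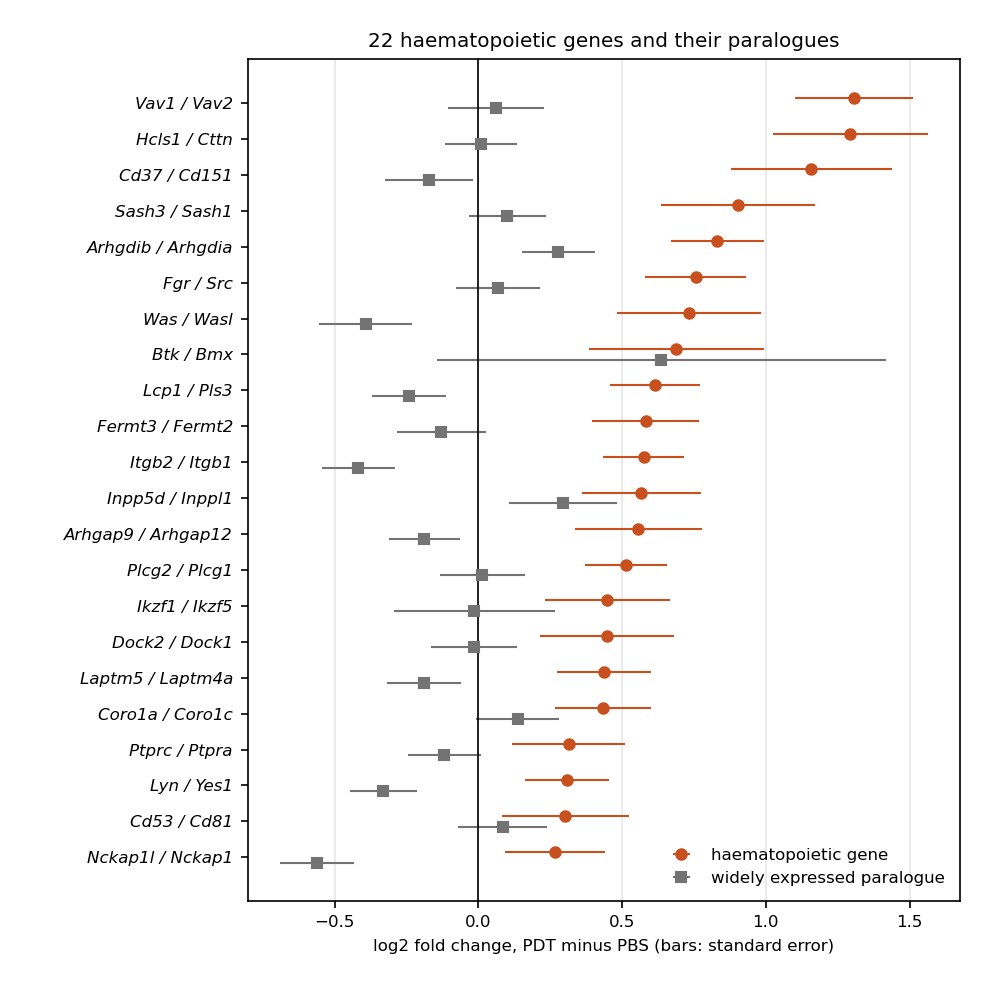
Log2 fold change, PDT minus PBS, of 22 haematopoietic genes (orange circles) and of a widely expressed paralogue of each (grey squares), with standard errors, ordered by the haematopoietic gene. The haematopoietic genes run from 0.27 to 1.31 and the paralogues from −0.56 to 0.64 (Bmx, at 8 to 42 reads a library).

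Other genes of the same pathways, 77 signalling and actin genes of leukocytes outside the set, were higher in PDT for 63 of 76 tested, and their median log2 fold change was 0.40. Ptprcap had 0 reads in every library, and its overlap with other genes was not looked at, so its count is uncertain. In 20 genes all PDT values lay above all PBS values, which was true of 5% of all tested genes. In 3 all lay below, which was true of 5.12% of all tested genes. The list was chosen with earlier results of these data known, so nothing is read from either number. In edgeR 0 passed the threshold and 29 had an unadjusted p under 0.05, while DESeq2 called 16 and limma-voom 5.

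Gmfg, an actin-debranching factor of leukocytes, was at 95.4, 39.7, 53.1 and 56.3 CPM in PDT 1 to PDT 4, against 14.5, 18.2, 12.1 and 32.4 CPM in PBS 1 to PBS 4. PDT 1 and PBS 4 were the highest of their groups, with a log2 fold change of 1.67 ± 0.33. Fyb1, an adaptor that binds Lcp2, differed by 1.19 ± 0.24, and Cyth4, an exchange factor for Arf GTPases, by 0.91 ± 0.18. The SLAM-family receptor Ly9 differed by 1.46 ± 0.29, and Rasgrp4, a Ras exchange factor of mast and myeloid cells, by 1.38 ± 0.29. These 5 genes had no overlap and adjusted p-values of 0.0566 to 0.0663 by edgeR. Cd44, Itga4 and Dock11, named after their values were seen, were the 3 with all PDT values below, at −0.62 ± 0.13, −0.52 ± 0.22 and −0.23 ± 0.13.

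Genes shared by all leukocytes were set beside those of single lineages, by counts and medians without a test of the lists. The 21 tested members expressed across leukocytes had a median difference of 0.58 on the log2 scale, 21 of 21 being higher, 3 called in edgeR and 13 without overlap (DESeq2 called 9 and limma-voom 7). The 8 of several lineages had a median of 0.70, with 0 called in edgeR and 7 at an unadjusted p under 0.05 (DESeq2 called 4 and limma-voom 1). The 5 myeloid members had one of 0.83, with 4 higher and 1, Lst1, called in edgeR (DESeq2 called 4 and limma-voom 2). Over all tested genes edgeR called 0.235%, DESeq2 5.3% and limma-voom 1.01%. For 5% all PDT values lay above all PBS values, and 16.5% had an unadjusted edgeR p under 0.05. The same contrast chose the members, and the marker lists below were chosen with earlier results known, so nothing is read from their counts.

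Macrophage and monocyte markers had a median of 0.65, with 15 of 15 higher. Of these edgeR called 1, DESeq2 8 and limma-voom 4, and 11 had an unadjusted edgeR p under 0.05. Cd68, a lysosomal glycoprotein of macrophages, was the 1 called in edgeR, at 127, 134, 129 and 107 CPM in PDT 1 to PDT 4, against 76.9, 78.1, 52.2 and 69.3 CPM in PBS 1 to PBS 4. The groups did not overlap, with a log2 fold change of 0.85 ± 0.15 (adjusted p = 0.0497 by edgeR), and the call was lost when any single library was left out and when GC content and length were corrected for. Ly6c2, of inflammatory monocytes, was at 10.9, 12.03, 14.7 and 6.04 CPM in PDT 1 to PDT 4, against 1.14, 3.96, 1.21 and 1.57 CPM in PBS 1 to PBS 4. PBS 2 stood above the rest of its group, and the log2 fold change was 2.46 ± 0.44 (adjusted p = 0.05103 by edgeR). The mean log2 CPM of the 15 markers was 7.47, 7.52, 7.27 and 7.15 in PDT 1 to PDT 4, against 6.84, 6.78, 6.07 and 6.57 in PBS 1 to PBS 4. As for the members, PBS 3 was the lowest library and PDT 4 the lowest of PDT.

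Neutrophil markers had a median of 1.39 over 10 tested of 12, all higher, with Ly6g and Ngp below the filter. Only 1 had all PDT values above all PBS values, against 5% of all tested genes. That gene was Csf3r, which encodes the receptor of granulocyte colony-stimulating factor, at 29.1, 19.6, 45.9 and 27.7 CPM in PDT 1 to PDT 4, against 12.1, 14.4, 12.1 and 8.64 CPM in PBS 1 to PBS 4 (log2 fold change 1.37 ± 0.25, adjusted p = 0.0515 by edgeR). Clec4d, a lectin of neutrophils and monocytes, overlapped through PDT 2, at 79.5, 17.8, 43.6 and 42.4 CPM in PDT 1 to PDT 4, against 15.4, 21.3, 13.3 and 11.5 CPM in PBS 1 to PBS 4. The summed level of the list was 624, 175, 530.3 and 301 CPM in PDT 1 to PDT 4, against 143, 171, 238 and 92.6 CPM in PBS 1 to PBS 4. PDT 2, which was the second-highest PDT library for the members' mean, was thus inside the PBS range for neutrophil genes.

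Lymphoid lists were low in level. T cell markers had a median of 1.06 (0.65 without PBS 1), with 12 of 15 higher, and NK and cytotoxic markers one of 1.10, with 9 of 10 higher. Cd3d, a chain of the T cell receptor complex, had 196, 114, 174 and 134 reads in PDT 1 to PDT 4, against 40, 108, 18 and 46 reads in PBS 1 to PBS 4. Cd8b1, a chain of the CD8 coreceptor, had 126, 40, 90 and 86 reads in PDT 1 to PDT 4, against 0, 34, 8 and 0 reads in PBS 1 to PBS 4. Both were without overlap, at log2 fold changes of 1.39 ± 0.50 and 2.92 ± 1.16 (adjusted p = 0.193 and 0.232 by edgeR). Gzma, a granzyme of cytotoxic lymphocytes, had 148, 98, 182 and 278 reads in PDT 1 to PDT 4, against 20, 12, 0 and 2 reads in PBS 1 to PBS 4. Gzmb, another granzyme, had 162, 124, 198 and 156 reads in PDT 1 to PDT 4, against 0, 130, 22 and 40 reads in PBS 1 to PBS 4. Their log2 fold changes were 4.20 ± 0.89 and 1.62 ± 0.90, fits that rest on few PBS reads (adjusted p = 0.0678 and 0.408 by edgeR). Summed, the 15 T cell markers held 35.01 to 41.9 CPM in PDT and 19.5 to 34.5 CPM in PBS, and the 10 NK and cytotoxic markers 22.2 to 26.6 CPM in PDT and 6.69 to 14.7 CPM in PBS.

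B cell markers, of which 4 of 10 passed the filter, had a median of −0.17, with 1 higher, and the median was above 0 without PDT 2, PDT 4 or PBS 2 (0.00678, 0.00591 and 0.11). The defining genes Cd79a, Ms4a1 and Pax5 were below the filter. Cd79b, a chain of the B cell receptor complex, was at 3.62 to 5.81 CPM in PDT and 3.004 to 4.79 CPM in PBS (0.22 ± 0.31), and Ighd, the delta heavy chain, at 0.153 to 0.887 CPM in PDT and 0.572 to 1.74 CPM in PBS (−0.99 ± 0.71). Dendritic cell markers had a median of −0.04, with 4 of 9 higher, and it was above 0 without PDT 1, PDT 3, PDT 4 or PBS 2 (0.05, 0.15, 0.01 and 0.15). Ccr7, the homing receptor of mature dendritic cells, differed by −0.71 ± 0.44, and the lectin Clec10a by 0.40 ± 0.28. Itgax, the member often used to mark dendritic cells, was the 1 lower member.

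Mast cell markers had a median of 0.17, with 6 of 8 higher, but of −0.03 after the GC and length correction. The median of all tested genes was −0.08 after it. The mast cell tryptase Tpsb2 differed by 0.66 ± 0.24 and the chymase Cma1 by 0.22 ± 0.18. For eosinophils 3 of 5 markers were tested, with a median of 0.71 (0.25 without PDT 2 and 0.33 without PBS 2). Siglecf differed by 1.09 ± 0.68 and Il5ra, the interleukin receptor chain, by −0.43 ± 0.16, while Epx, the eosinophil peroxidase, had 0 reads in every library. In edgeR 0 genes passed the threshold in the neutrophil, T cell, NK and cytotoxic, B cell, dendritic, mast cell and eosinophil lists, where the numbers of genes with an unadjusted p under 0.05 were 7, 3, 1, 0, 0, 1 and 1, in that order. In these lists DESeq2 called 3 neutrophil genes and 0 of the others, and limma-voom called 1 and 0. The part of each cell type in the members' differences was not tested.

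**Figure D4:**
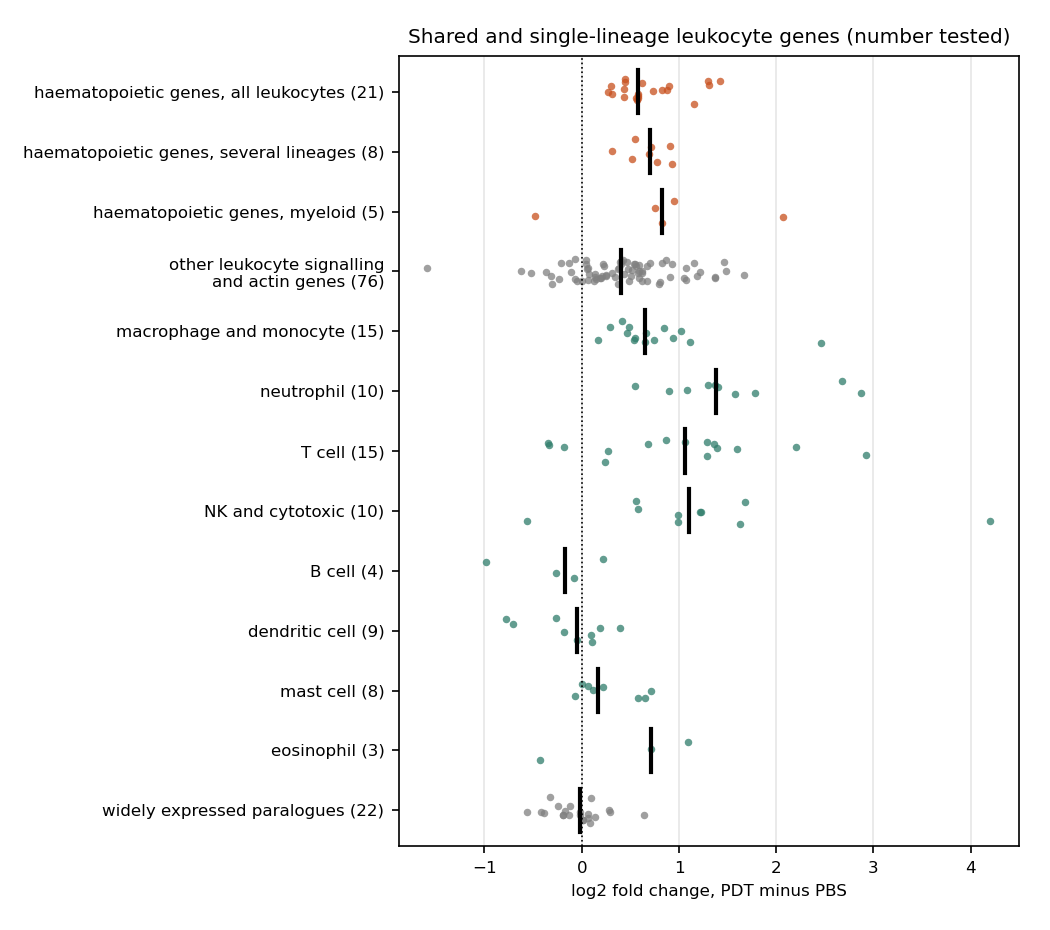
Log2 fold change, PDT minus PBS, of each tested gene (points) with the list median (black bar), for the haematopoietic genes by breadth of expression (orange), single-lineage marker lists (green), other leukocyte signalling genes and widely expressed paralogues (grey). The medians run from 0.58 to 0.83 for the haematopoietic genes, 1.39 for neutrophil markers, −0.17 for B cell markers and −0.01 for paralogues.

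Transcript length went with the size of the difference. The 17 members with the shorter transcripts (415 to 2963 bases) had a median log2 fold change of 0.88, and the 17 with the longer (2970 to 6409 bases) one of 0.56. Over all tested genes with a length, the shorter and the longer had medians of 0.10 and −0.08. By GC content, the 17 members with more GC had a median of 0.78 and the 17 with less one of 0.58. Over all tested genes with a GC content, those with more and with less GC had medians of 0.09 and −0.10. With the correction described next, the members with more GC had a median of 0.51 and those with less one of 0.56. After a correction fitted to GC content and length in each library, the members' median was 0.54, or 0.61 for the shorter transcripts and 0.49 for the longer, and 33 of 34 members were still higher in PDT. The correction included a constant for each library, and it moved the median of all tested genes from −0.00217 to −0.08. Adjusted p-values by edgeR were then 0.0573 for Lst1, 0.0683 for Vav1, 0.0803 for Pstpip1 and 0.0913 for Cd52, so 0 members passed (23 had an unadjusted p under 0.05). Spi1 and Coro1a were at 0.51 and 0.11 after it, while Ptprc moved up to 0.51.

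**Figure D5:**
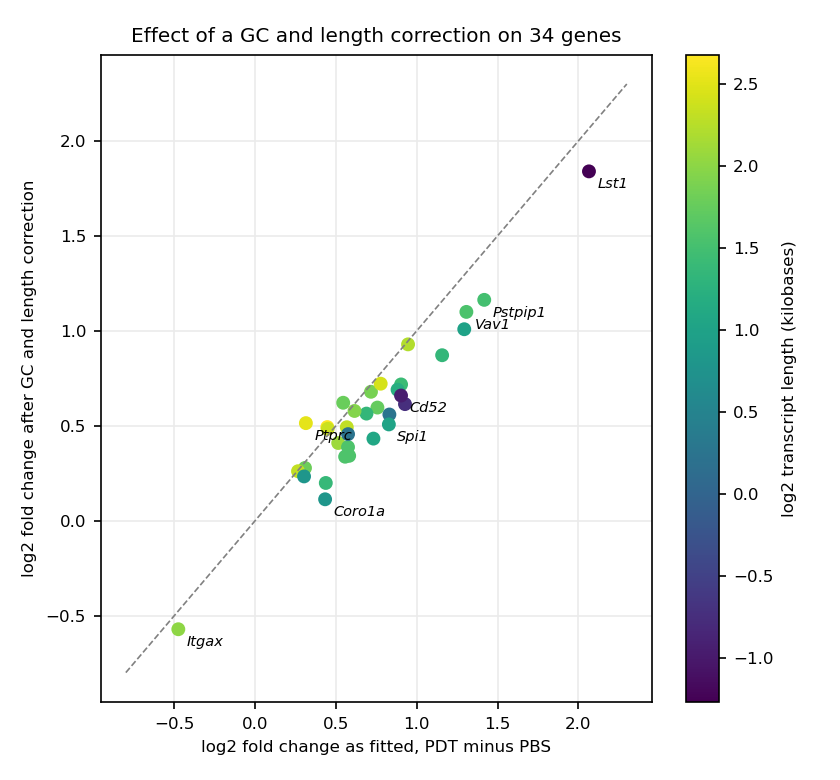
Log2 fold change, PDT minus PBS, of 34 haematopoietic genes as fitted (x axis) and once GC content and length of transcripts were corrected for (y axis), 1 point per gene, coloured by log2 transcript length. Most points lie a little below the dashed line of equality, with the median at 0.54 after correction and 0.65 as fitted, and Ptprc lies above it.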

How the data were processed

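Raw counts of reads by gene were deposited by the authors as 1 table of 8 libraries, per the file headers. Per the labels' protocols, ribosomal RNA was removed and a directional library kit was used, and the labels call the tissue sorted without naming a gate. Per the submitters' processing notes, the tools included cutadapt 4.6 and STAR 2.7.11b, and the genome build was GRCm39. How reads were counted, with which strand setting and annotation, is not given in the sources used here, and reads of overlapping genes are therefore uncertain. Even numbers made up 77.9% to 83.8% of gene counts from 1 to 20, so both reads of a pair may have been counted. Rows without a symbol numbered 484, with 0.0128% to 0.0176% of reads.

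Counts were fitted with edgeR 4.0.16 and limma 3.58.1 in R 4.3.3: filterByExpr (16588 genes), TMM scaling, the quasi-likelihood test without covariates, and Benjamini-Hochberg adjustment over all tested genes at 0.05. The biological coefficient of variation was 0.392. The fit was tested on simulated data. It recovered 4 of 67 genes changed 1.5-fold, 22 of 67 changed 2-fold and 45 of 66 changed 4-fold, with 5 false calls. A gene not called is therefore not shown to be unchanged. Chi-square per degree of freedom between libraries was 62.1 to 190.6 over 28 pairs, so none was a copy. Alternatives were RLE scaling, no filter, 1 CPM in 4 libraries, the replicate number as a block, counts divided by 2, a spline correction for GC and length (4 degrees of freedom), each library left out, DESeq2 1.42.0 on the same genes and limma-voom with quality weights. TPM, lengths, GC and exon overlap used the longest transcript or all exons of GENCODE M21, an annotation of the preceding assembly, matched by identifier for 98.1% of tested genes. No protein table was used.

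The members, their roles, the 22 paralogues, the other pathway genes and the marker lists (macrophage, neutrophil, T, NK, B, dendritic, mast cell, eosinophil, erythroid, platelet, epithelium, fibroblast, endothelium and skeletal muscle) were chosen with earlier results of these data known. Every member is named. Values per library are given for members past the threshold and for the 2 most abundant by CPM of each role, with Itgam and Itgax added after their values were seen. The 6 most abundant paralogues, 5 of the 6 other pathway genes with the smallest p (1 is not reported here) and, of each leukocyte lineage list, the 2 with the smallest p and any called are named. CPM and TPM are given as mean ± SD over 4 libraries.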

Additional observations from a re-analysis of the deposited data

Results flagged for a closer look

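Dixon's test was applied to the 4 CPM values of a gene in a group, for the genes the text names, and 4 of the 124 groups looked at had a library far from the rest, where chance gives about 1 in 20. Among the members 1 was found. Itgam in PBS was at 9.62 CPM in PBS 3, against 20.8 to 22.5 CPM in the other PBS libraries, and PBS 3 was the lowest PBS library for 29 of 34 members. The log2 fold change of Itgam was 0.73 without PBS 3 and 0.95 with it.

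Outside the set, Ly9 in PDT was at 26.3 CPM in PDT 1, and the other PDT libraries lay between 12.97 and 14.9 CPM. Ly6c2 in PBS was at 3.96 CPM in PBS 2, against 1.14 to 1.57 CPM in the other PBS libraries. Tpsb2 in PBS was at 22.4 CPM in PBS 1, against 14.7 to 15.98 CPM in the other PBS libraries.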

How the results depend on the processing

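The 34 members kept 33 higher and 1 lower in every alternative run, with a median log2 fold change of 0.53 (without PBS 3) to 0.77 (without PBS 1). Counts of calls moved. Over all genes the 39 calls became 534 with no count filter, 88 with 1 CPM in 4 libraries, 182 with the replicate block, 67 with counts divided by 2, 13 after the GC and length correction, 879 in DESeq2 and 167 in limma-voom, and 0 to 122 with 1 library left out. In edgeR 0 genes passed without PDT 1 and without PBS 3, where 2162 and 2349 had an unadjusted p under 0.05. Called members, 4 in the report, were 17, 7, 9, 6, 0, 17 and 10 in the same order, and 0 to 7 with 1 library left out. Called paralogues, 0 in the report, were 1 with no filter, 2 in DESeq2, 1 in limma-voom and 0 to 1 with 1 library left out. Called genes of the other pathway list, 0 in the report, were 11 with no filter, 2 with 1 CPM in 4 libraries, 3 with the replicate block, 1 with counts divided by 2, 16 in DESeq2, 5 in limma-voom and 0 to 3 with 1 library left out.

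Among list medians, that of the paralogues was −0.13 after the GC and length correction, that of NK and cytotoxic genes 1.86 with the replicate block and 2.32 in limma-voom, and that of eosinophil genes 1.41 in limma-voom, 0.33 with 1 CPM in 4 libraries and 0.25 to 0.998 with 1 library left out. The T cell median was 1.60 with the replicate block and 0.65 (without PBS 1) to 1.25 with 1 library left out. The mast cell median was −0.03 after the correction and 0.08 (without PBS 4) to 0.34 (without PBS 1) with 1 library left out. The dendritic median, −0.04 in the report, was 0.10 with 1 CPM in 4 libraries, 0.00356 with the replicate block, −0.18 after the correction, −0.25 in limma-voom and −0.32 to 0.15 with 1 library left out. The B cell median, −0.17 in the report, was −0.38 after the correction, −0.26 with counts divided by 2, −0.08 with no filter, −0.07 with the replicate block, −0.03 with 1 CPM in 4 libraries and −0.37 to 0.11 with 1 library left out. The GC and length correction turned the sign of Arhgdia (−0.045), Cttn (−0.17), Cd79b (−0.10) and Cma1 (−0.0507). It also moved the median of all tested genes from −0.00217 to −0.08. Arhgdia and Cma1 stayed above that median, and Cttn and Cd79b lay below it. The log2 fold change of Cttn was −0.00101 with the replicate block and ran from −0.0703 to 0.0863 with 1 library left out. The causes were not tested. Whether the replicate numbers pair the samples is not given by the labels, and the correlations below cannot settle it. Deviations of same-numbered libraries correlated at r = 0.0385 to 0.0690 across genes and those of others at −0.124 to 0.136. In all, 0 of 8 libraries correlated best with its own number. Precision is limited by 4 libraries a group and, for Gzma, Gzmb and Cd8b1, by low counts.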

Other observations

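Markers of other blood cells and tissues differed in direction. All 7 erythroid genes were lower in PDT, with a median log2 fold change of −1.43, 0 called in edgeR and 4 at an unadjusted p under 0.05 (DESeq2 and limma-voom called 0). Their summed level was 721, 1355, 1182 and 591 CPM in PDT 1 to PDT 4, against 1006, 2641, 810.3 and 4444 CPM in PBS 1 to PBS 4, so PBS 2 and PBS 4 stood above all other libraries. Of 4 tested platelet genes 3 were higher, with a median of 0.75. Endothelial genes had a median of 0.24 (4 of 7 higher) and fibroblast genes one of 0.02 (4 of 8 higher). All 6 skeletal muscle genes were higher, with a median of 1.49, but their summed level was 735, 3331, 421 and 149.6 CPM in PDT 1 to PDT 4, against 243, 1387, 326 and 52.8 CPM in PBS 1 to PBS 4, and PDT 2 and PBS 2 were the highest of their groups.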
